A study of Homo sapiens with 4 samples.

Results

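HCC1937 is a human breast cancer cell line, long established, without a working BRCA1. The comparison described here sets HCC1937 cells with restored wild-type BRCA1 (genotype labelled wild type, called wtBRCA1) against HCC1937 cells with the vector (genotype labelled BRCA1 -/-), both treated with OTX-015, at a dose and time not given in the sources used here. OTX-015, also named birabresib, displaces the BET bromodomain proteins from acetylated histones. Each group has 1 poly(A) RNA library, and the members are the genes at 5 FPKM (fragments scaled by transcript length and library size) or more in at least 1 of the 2 libraries, 11539 of 60487 genes. The 58 short structural RNA genes among them were set apart, which left 11481 genes, of which 9152 are protein-coding. The same lines under the solvent DMSO, again 1 library each, serve as a comparison that shares no library with this one.

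A difference is the value in wtBRCA1 cells minus that in vector cells on log2(FPKM + 1), and a gene is called 2-fold higher or lower where this reaches 1 or -1. With 1 library per group no difference has a replicate check, none was tested, and the sequencing depth is unknown. Restored BRCA1 and any other difference between the 2 lines cannot be told apart. The labels do not say whether each line is a clone or a pool. The threshold of 5 FPKM kept, for example, GABRE at 2.01 FPKM in vector and 5.01 in wtBRCA1 cells and left out SGCB at 0.313 and 4.99.

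BRCA1 is a ubiquitin ligase that acts with BARD1 in the repair of DNA double-strand breaks by homologous recombination, and its loss leaves cells dependent on other repair routes. In the breast it is also tied to the choice between luminal and basal epithelial identity. BET proteins recruit the elongation factor P-TEFb to promoters and enhancers, and inhibitors of them mute many genes that depend on large enhancers while histone genes and HEXIM1 typically go up.

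The epithelial markers EPCAM (377 FPKM in vector and 427 in wtBRCA1 cells) and CDH1 (242 and 274) were high in both OTX-015 libraries. The fibroblast markers COL1A2, COL3A1, DCN and PDGFRB were at 0 in all 4 libraries, COL1A1 was at 4.01 in vector and 8.39 in wtBRCA1 cells under OTX-015, and the summed level of the 6 fibroblast, 4 endothelial and 3 adipocyte markers stayed below 10 FPKM in each. Of the 5 immune markers only CD68 and, in wtBRCA1 cells, CD14 passed 5 FPKM (24.8 and 44.5 for CD68 and 0 and 5.62 for CD14 under OTX-015), and their part in the results was not tested. The 10 highest genes held 39.2% of the summed FPKM in vector and 33.8% in wtBRCA1 cells, and short structural RNA 2.67% and 5.72%. Scaling factors from median ratios were 0.991 and 1.01, close to 1.

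BRCA1 (ENSG00000012048, chromosome 17, 43044295 to 43170245, hg38) stood at 40.8 FPKM in vector cells and 2712 in wtBRCA1 cells under OTX-015, a ratio of 66.4. It ranked 3519th by FPKM among the 11481 genes in the vector library and 35th in the wtBRCA1 library. Under DMSO the 2 lines had 37.2 and 171 FPKM. The value per gene does not separate the introduced transcript from the cells' own.

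The genes around BRCA1 went the other way. Of 26 protein-coding members from NAGLU to ETV4 on either side of it, 25 were below zero under OTX-015 and 25 under DMSO, with medians of -1.05 and -0.997. At the 2-fold threshold 13 of the 26 were lower and 1 was higher. RPL27, a ribosomal protein gene, had 687 and 260 FPKM, a difference of -1.40. PSME3, a proteasome activator, had 715 and 328, and VAT1 had 170 and 45.2. The exception was IFI35, an interferon-induced gene, at 9.32 and 25.8 FPKM. The adjacent gene NBR1 had 33.9 and 16.5 FPKM, a difference of -0.99.

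Across the 11481 genes, 1702 (14.8%) were at least 2-fold higher in wtBRCA1 cells and 1428 (12.4%) at least 2-fold lower under OTX-015. At 4-fold the counts were 474 and 343. The median difference was 0.03, and the middle 50% of genes lay between -0.55 and 0.63. The remaining 8351 genes passed neither threshold. The counts in gene lists given next are to be read against these shares. Under DMSO the same genes gave 1563 (13.6%) higher and 1257 (10.9%) lower. The plot of levels shows both libraries gene by gene.

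**Figure D1:**
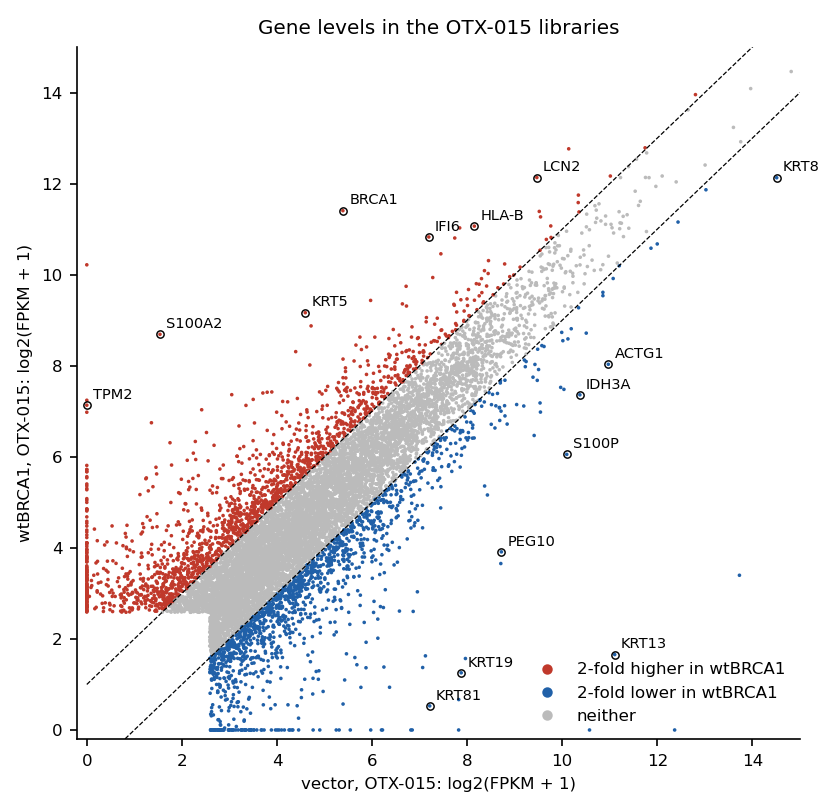
Each point is 1 of 11481 genes, with log2(FPKM + 1) in vector cells under OTX-015 on the x axis and in wtBRCA1 cells under OTX-015 on the y axis. Dashed lines mark a difference of 1 either way, red points are the 1702 genes 2-fold higher and blue points the 1428 genes 2-fold lower in wtBRCA1 cells, and BRCA1 at 2712 against 40.8 FPKM stands among the highest genes of the wtBRCA1 library.

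Genes listed at 0 in the vector library made up much of the upper end. SNRPN, a splicing protein gene of the imprinted 15q region, was listed at 0 in vector cells and at 150 FPKM in wtBRCA1 cells, and SNURF of the same locus at 0 and 46.3. TPM2, a tropomyosin, was listed at 0 and 139 FPKM. The iron carrier TF was listed at 0 and 55.1, the cytoskeletal linker EPB41L2 at 0 and 50.1, C1orf21 at 0 and 49.9 and the matrix protein NPNT at 0 and 45.5. GPNMB, a lysosomal and melanosomal glycoprotein, was listed at 0 and 41.3, the peptidase MME at 0 and 40.1, CHI3L2 at 0 and 32.8, the protease inhibitor SERPINA3 at 0 and 31.0 and PDZK1IP1 at 0 and 28.0. Every one of these 12 genes was also higher in wtBRCA1 than in vector cells under DMSO, and at most 3.05 FPKM in vector cells there. In all, 152 of the 11481 genes were listed at 0 in the vector OTX-015 library and 86 in the wtBRCA1 one.

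Of the genes above 0 in both libraries, S100A2, a calcium sensor made by basal epithelium, had 1.91 FPKM in vector and 412 in wtBRCA1 cells, a ratio of 216. RBM23, an RNA-binding protein, had 1.57 and 106, a ratio of 68.0. RBM23 shares its locus with PRMT5-AS1, which reached 237 FPKM, so reads could have been divided between them.

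At the lower end, KRT13, a keratin of stratified epithelia that make no horny layer, had 2199 FPKM in vector and 2.15 in wtBRCA1 cells, and vector cells were thus 1022 times higher. KRT81, a hair keratin, had 147 and 0.443 FPKM. KRT13 and KRT81 share their loci with the clone-named genes AC019349.5 and AC021066.1, which reached 13559 and 13814 FPKM, so their levels depend on how reads were divided. TGM2, the tissue transglutaminase, had 133 and 1.59 FPKM, the membrane protein MAL 138 and 2.09 and LYPD2 81.6 and 0.916. The uroplakin UPK1B had 61.8 FPKM in vector cells and was listed at 0 in wtBRCA1 cells, as were SPARC, a matrix protein (38.6), and FLNC, a filamin (37.0). TMEM120B had 417 and 11.6, BASP1 75.1 and 1.61, and ADAMTSL4-AS1 57.6 and 1.58. TMEM120B shares its locus with RHOF (up to 204 FPKM), FLNC with ATP6V1F (51.3) and TGM2 with RPRD1B (11.2), so reads could have been divided between them. Reads of ADAMTSL4-AS1 and its sense partner cannot be told apart unless strand was used in counting.

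Of the luminal and simple-epithelial keratins KRT8, KRT18 and KRT19 were lower in wtBRCA1 cells, and of the basal keratins KRT5, KRT6A, KRT6B and KRT16 were higher, while KRT7, KRT14, KRT15 and KRT17 lay within 2-fold. KRT8, the keratin of simple epithelia shown in the plot of 26 genes, was the highest of all named genes in the vector OTX-015 library at 23339 FPKM and had 4476 in wtBRCA1 cells. Its partner KRT18, which shares its locus, had 744 and 125 FPKM, so reads could have been divided between them. KRT19, a luminal keratin, had 234 and 1.39 FPKM, and vector cells were 168 times higher. Of 26 luminal markers 17 passed 5 FPKM, of which 7 were 2-fold lower and 0 higher (over all genes 12.4% and 14.8%), with a median of -0.97. The median over all 26 without the filter was -0.44, and under DMSO 10 of the 17 were lower, with a median of -1.19. The trefoil factor TFF1 had 18.4 FPKM in vector cells and was listed at 0 in wtBRCA1 cells. XBP1, a transcription factor of the secretory apparatus, had 44.8 and 12.02 FPKM, the retinaldehyde dehydrogenase ALDH1A3 441 and 138, and the claudin CLDN3 5.17 and 0.405. GATA3, the luminal master regulator, had 11.8 and 7.35 FPKM and KRT7 1142 and 754, both within the 2-fold bounds. In bulk RNA, fewer cells of a type and less RNA per cell cannot be told apart.

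KRT5, the basal keratin, had 23.2 FPKM in vector and 573 in wtBRCA1 cells, a difference of 4.57. Of 27 basal markers 22 passed 5 FPKM, of which 10 were 2-fold higher and 1 lower, with a median of 0.87 under OTX-015 against 2.48 under DMSO. The hemidesmosomal collagen COL17A1 had 1.58 and 9.21 FPKM. DSC3, a desmosomal cadherin of basal cells, had 0.0755 and 8.002. The stress keratins KRT6A (7.97 and 26.3) and KRT16 (315 and 963) were also past the threshold. KRT17 had 811 and 1118 FPKM under OTX-015 but 137 and 920 under DMSO, and KRT15, another basal keratin, had 11.3 and 19.5 against 41.1 and 422. For these the lines differed less in the OTX-015 pair. The 1 lower marker was MYLK, the myosin light chain kinase, at 6.33 and 0.832 FPKM. KRT6A, KRT6B and KRT16 have near-identical relatives, so their single values are uncertain.

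**Figure D2:**
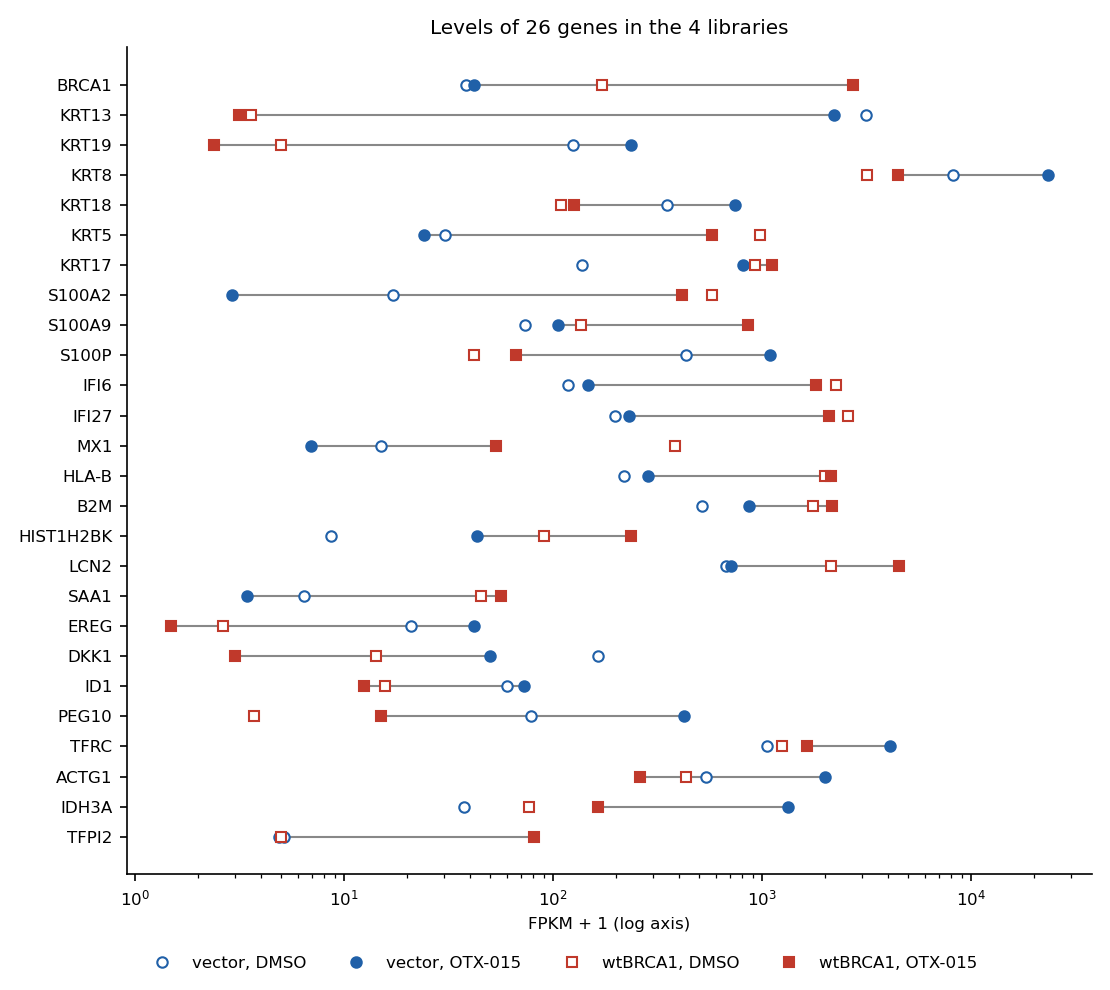
The x axis is FPKM + 1 on a log scale for 26 genes, with open symbols for DMSO, filled symbols for OTX-015, circles for vector and squares for wtBRCA1, and a line joining the 2 OTX-015 libraries. KRT13, KRT19, EREG and PEG10 lie far lower and BRCA1, S100A2, KRT5 and IFI6 far higher in wtBRCA1 cells, while IDH3A and TFPI2 differ mainly under OTX-015.

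Some keratins outside these classes and some genes of the upper epithelial layers were lower in wtBRCA1 cells. Of 15 other keratins 5 passed 5 FPKM, of which 3 were lower (KRT13, KRT81 and KRT4, the last at 123 and 7.19 FPKM) and 0 higher. Of 29 cornified envelope, uroplakin and Ly6 family genes 14 passed, of which 7 were lower, 1 higher and 6 neither. The medians were -3.92 and -0.79, but -0.003 and 0 over all 15 and all 29 without the filter. PSCA, a Ly6 family surface antigen, had 41.9 and 1.14 FPKM, and UPK2 had 10.2 and 0.913. The protease inhibitor CSTA was the 1 higher gene, at 0.863 and 5.42. Among junction genes, PKP3, a plakophilin of desmosomes, had 85.0 and 16.4 FPKM and its relative PKP1 had 0.563 and 8.56. PKP3 lies in the first 10 Mb of chromosome 11, where the median difference was -1.36 over 70 genes, as described below. Plakoglobin, JUP, had 276 and 84.0, and beta-catenin, CTNNB1, 132 and 50.6. The 17 junction members split into 3 higher and 4 lower. Once the median of the 10 Mb segment around each gene was subtracted, the 12 members with such a median held 3 higher and 3 lower.

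Genes that lie near each other often shared a direction. The 11481 genes were also viewed in 10 Mb segments with at least 12 protein-coding members, leaving out histone and antigen presentation genes, a division chosen after seeing the data. Over 245 segments (8646 genes) the segment medians under OTX-015 and under DMSO were related with r = 0.892 (Pearson) and rho = 0.885 (Spearman), a description only since the segments of 1 treatment share its libraries. Of 70 segments past 0.5 either way under OTX-015, 70 had the same sign under DMSO.

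The lowest segment was the first 10 Mb of chromosome 11, with a median of -1.36 over 70 genes, of which 55 were 2-fold lower and 2 higher, and -1.34 under DMSO. The next 10 Mb had a median of -1.11 over 34 genes. On chromosome 3 the segment from 30 to 40 Mb had a median of -1.17, and on chromosome 20 the first 10 Mb had -0.96 with 20 of 44 genes lower. High segments included chromosome 1 from 110 to 120 Mb, with a median of 1.22 and 27 of 37 genes higher, and chromosome 3 from 170 to 180 Mb with 1.31 and from 180 to 190 Mb with 1.14. By whole chromosome, chromosome 20 was lowest at -0.59, with 30% of its 250 genes lower and 2% higher, and chromosome 9 was highest among the nuclear chromosomes at 0.35. Of the 1542 higher and 1326 lower genes that lie in such a segment, 1022 and 812 kept the call once the median of the other genes of their segment was subtracted. The segment that holds BRCA1, 40 to 50 Mb of chromosome 17, had a median of -0.75 over 114 genes. DNA copy number was not measured here, and its part in these medians was not tested.

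**Figure D3:**
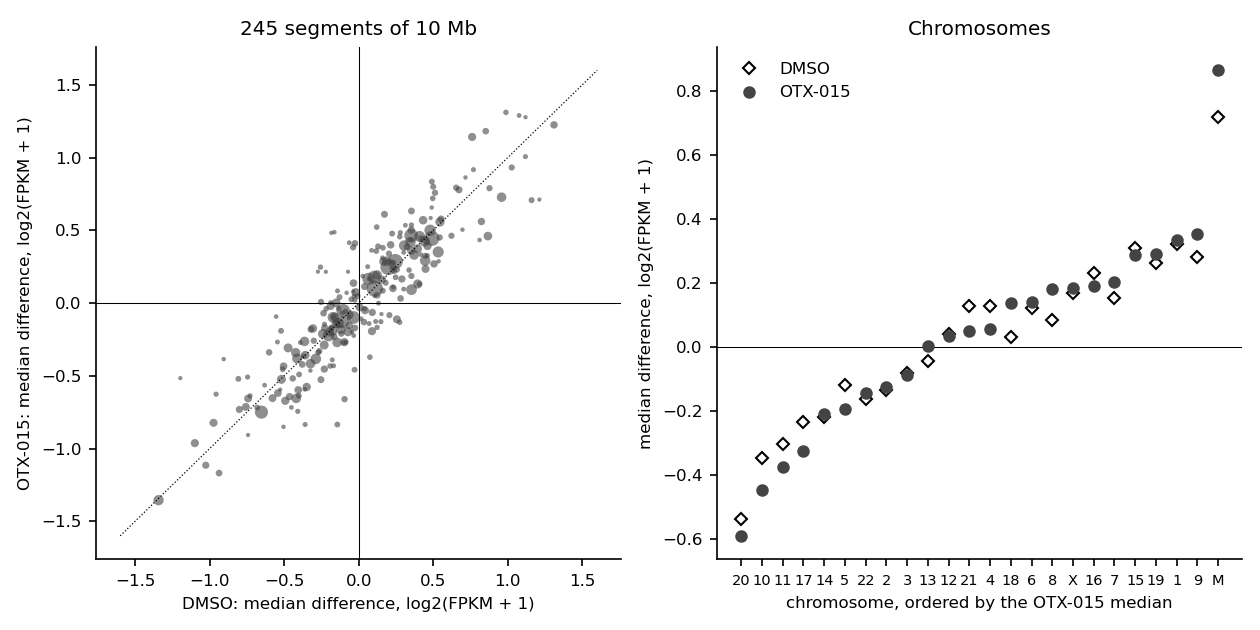
Left, each point is 1 of 245 segments of 10 Mb, with the median difference between the lines under DMSO on the x axis and under OTX-015 on the y axis in log2(FPKM + 1), and area proportional to the number of genes. Right, the chromosome medians under OTX-015 (filled) and DMSO (open diamonds), from -0.59 on chromosome 20 to 0.35 on chromosome 9 and 0.86 for the mitochondrial genome (M).

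Interferon-stimulated genes, which type I interferon turns on through a complex that holds STAT2 and IRF9 at a response element in their promoters, were higher in wtBRCA1 cells. Several carry this element just upstream of the start, and those of the genes that differed most, with ISG15 as a classic member, are printed in the gene's own 5′ to 3′ direction from RefSeq (GRCh38.p14), with every match to the core in capitals. IFI6 is on the minus strand at chr1:27672256-27672368, IFI44 on the plus strand at chr1:78649751-78649788, IFI27 on the plus strand at chr14:94110608-94110670, BST2 on the minus strand at chr19:17405725-17405780 and ISG15 on the plus strand at chr1:1013364-1013419.
IFI6: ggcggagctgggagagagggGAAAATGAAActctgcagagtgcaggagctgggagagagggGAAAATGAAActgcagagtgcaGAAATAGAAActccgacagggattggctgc
IFI44: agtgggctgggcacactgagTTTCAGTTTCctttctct
IFI27: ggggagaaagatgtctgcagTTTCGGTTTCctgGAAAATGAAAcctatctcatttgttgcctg
BST2: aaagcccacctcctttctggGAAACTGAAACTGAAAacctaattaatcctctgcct
ISG15: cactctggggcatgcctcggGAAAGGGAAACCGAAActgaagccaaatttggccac

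The core searched was TTTCNNTTTC or, on the other strand, GAAANNGAAA, in 300 bases from 250 before to 50 after the start, and overlapping matches were kept, as in BST2 and ISG15. It occurred in 1255 of 35116 RefSeq promoters (3.57%) and in 194 of 7511 protein-coding genes compared that had a promoter entry (2.58%). Among the 2-fold higher genes 44 of 1032 had it (4.26%), among the lower 14 of 881 (1.59%) and among the rest 136 of 5598 (2.43%). Of the interferon-stimulated genes at 5 FPKM or more 18 had an entry and 13 of them a match (72.2%), and of 13 antigen presentation genes 7 had one (53.8%). Of 11 basal markers 1 had a match (9.09%), and of 11 luminal markers also 1. These groups overlap, since the 2-fold higher genes include interferon-stimulated ones with a match, such as IFI6 and IFI27. A match is a description of letters and does not show that a factor is bound.

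Of 40 interferon-stimulated genes 24 passed 5 FPKM under OTX-015, of which 20 were 2-fold higher and 0 lower, with a median of 1.74, against 14.8% and a median of 0.03 over all genes. Under DMSO 21 of the same 24 were higher and 0 lower, with a larger median of 2.22. Several members, such as IFI44, DDX58 and IFIH1, passed the filter through the wtBRCA1 library alone, which favours a higher call. Without the filter the median over all 40 was 1.47 under OTX-015. IFI6, a mitochondrial protein that opposes apoptosis, had 145 FPKM in vector and 1816 in wtBRCA1 cells. IFI27 had 229 and 2086, and BST2, which tethers virus particles to the membrane, 49.6 and 349. IFI44 had 2.97 and 44.5 and the antiviral GTPase MX1 5.96 and 52.1. The ubiquitin-like modifier ISG15 had 29.8 and 83.3, its ligase HERC5 9.89 and 49.3 and the related HERC6 5.64 and 36.1. The RNA sensors DDX58 (2.86 and 8.73) and IFIH1 (1.93 and 5.78) were past the threshold, and the oligoadenylate synthetase OAS1 (2.78 and 6.37) and IFITM3 (10.5 and 18.0) were short of it. The other 2 short of it were DTX3L and MX2. The 16 members below 5 FPKM included IFIT1 at 0.720 and 4.95 and RSAD2 at 0.131 and 4.09. After subtraction of the segment medians 21 of the 23 members with one were past the threshold and the median was 2.08.

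The signalling genes upstream differed less. Of 26 such genes 19 passed 5 FPKM, of which 2 were 2-fold higher (USP18, an ISG15 protease, at 1.96 and 5.79, and IRF2 at 3.19 and 8.72) and 1 lower, with a median of 0.52. IRF9, a DNA-binding subunit of that complex, had 10.3 FPKM in vector and 15.2 in wtBRCA1 cells under OTX-015, against 10.4 and 93.2 under DMSO. The adaptor of the RNA sensors MAVS was the lower gene, at 12.2 and 3.54 FPKM. It did not keep this call after subtraction of the segment medians, where 2 of the 19 were higher and 0 lower.

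Antigen presentation by MHC class I, which displays peptides made by the immunoproteasome and carried by TAP, was likewise higher. Of 18 genes 17 passed 5 FPKM, of which 9 were higher and 0 lower (over all genes 14.8% and 12.4%), with a median of 1.17. Under DMSO 13 were higher with a median of 1.76. After subtraction of the segment medians 6 of the 16 members with one were higher under OTX-015. HLA-B had 283 and 2143 FPKM, HLA-C 441 and 1204 and B2M, the light chain, 865 and 2148. The immunoproteasome subunits PSMB9 (8.86 and 73.8) and PSMB8 (10.9 and 61.9) and the transporter TAP1 (8.52 and 48.0) differed by over 2 units, whereas TAP2 had 56.8 and 66.5. NLRC5, the class I transactivator, had 16.04 and 50.01. HLA genes are near-identical in parts, so reads may be divided among them. Of the class II genes 3 of 10 passed, with the invariant chain CD74 at 0.171 and 9.75 and HLA-DMA at 0.724 and 7.14.

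Replication-dependent histone genes, whose transcripts mostly lack a poly(A) tail, were 2-fold higher in 14 of the 14 members at 5 FPKM or more out of 20, with a median of 2.01. A gene low in vector cells passes the filter only if it is high in wtBRCA1 cells, which favours a higher call. Without the filter the median over all 20 was 1.83. The linker histone HIST1H1C had 69.4 FPKM in vector and 252 in wtBRCA1 cells, HIST1H2BK 42.5 and 233, HIST1H2AC 37.0 and 124, and HIST1H4H 9.18 and 139. Under DMSO the same 14 had a median of 1.84 with 11 past the threshold. In the 20 to 30 Mb segment of chromosome 6, histone and antigen presentation genes had a median of 1.98 over 21 genes, with 19 higher, and the other 13 genes 0.44. The larger share of short structural RNA in wtBRCA1 cells moves with these genes, and its part in the result was not tested. Members of the cluster are near-identical, so single values are uncertain.

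Acute phase proteins and secreted defence proteins were higher in part. LCN2, a siderophore-binding lipocalin, had 706 FPKM in vector and 4490 in wtBRCA1 cells and ranked 20th of all genes there. SAA1, serum amyloid A, had 2.44 and 55.4, complement C3 86.2 and 443, complement factor CFB 18.8 and 57.8 and the copper oxidase CP 28.7 and 79.6. The pentraxin PTX3 was listed at 0 and 7.505. Of 17 members at 5 FPKM or more 8 were higher and 1 lower (PI3, elafin, at 2351 and 1172), against 14.8% and 12.4% over all genes. NFKB1 (24.99 and 14.1) and NFKBIA (39.5 and 25.5) were not past the threshold. The median was 0.99, but 0.30 over all 19 without the filter. PTX3 passed the filter through the wtBRCA1 library alone, which favours a higher call. After subtraction of the segment medians 8 were higher and 0 lower. Among S100 genes, S100A8 had 5.24 and 35.85 and S100A9, its partner in calprotectin, 104 and 857, while S100P had 1093 and 65.4. Of 12 S100 genes 6 were higher and 1 lower. The higher count was 3 after quantile normalization and 2 after subtraction of the segment medians.

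Few cytokines were expressed. Of 29 chemokines and cytokines 6 passed 5 FPKM, with IL32 (2.61 and 9.68) and CCL5 (1.08 and 5.85) higher and IL11 (12.1 and 0.829), IL18 (65.7 and 21.4), IL1RN (5.63 and 1.29) and CXCL16 (33.3 and 14.8) lower. CXCL10, an interferon-inducible chemokine, was listed at 0 in both OTX-015 libraries.

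Matrix and adhesion genes were split between strong differences either way. TNC, tenascin C, had 3.42 FPKM in vector and 37.8 in wtBRCA1 cells, CTGF, a matricellular protein, 23.8 and 125, and COL7A1, the anchoring fibril collagen, 1.75 and 11.2. COL6A1 had 75.5 and 9.96 and COL6A2 35.2 and 16.9. Of 16 collagens and matricellular genes 7 were higher and 3 lower. The integrins ITGB6 (0.935 and 16.8) and ITGA1 (0.0633 and 7.75) and ITGB5 (29.8 and 131) were higher, while the laminin receptor chain ITGB1 had 639 and 600. Of 20 proteases and inhibitors 9 were higher and 3 lower. TIMP1, a metalloproteinase inhibitor, had 347 and 1041, the cathepsin CTSV 58.0 and 223 and MMP1, a collagenase, 6.29 and 25.2. The kallikrein KLK8 had 33.8 and 4.14. CTSD, cathepsin D, had 1298 and 618, a difference of -1.07 that became 0.29 after subtraction of its segment's median, since it lies in the first segment of chromosome 11. After this subtraction the protease list had 5 higher and 2 lower among the 17 members with a segment median.

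ACTG1, the cytoplasmic gamma actin, had 2003 FPKM in vector and 261 in wtBRCA1 cells under OTX-015, against 539 and 430 under DMSO. ACTB, beta actin, had 2008 and 1355. EZR, which links actin to the membrane, had 667.5 and 214, whereas its relative MSN had 11.8 and 29.9. The 23 members of the actin cytoskeleton list held 3 higher and 5 lower. After subtraction of the segment medians 2 of the 22 members with one were higher and 3 lower.

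Several ligands of the EGF receptor were lower in wtBRCA1 cells. EREG had 40.9 FPKM in vector and 0.484 in wtBRCA1 cells, AREG 52.0 and 10.9 and TGFA 33.6 and 13.5, while HBEGF had 19.6 and 20.4. EGFR itself had 24.6 and 18.8, and ERBB2 97.5 and 47.5, a difference of -1.02. AXL, a receptor tyrosine kinase, had 50.3 and 1.70 and IGF1R 5.19 and 0.881. DUSP4 (9.69 and 0.642) and DUSP5 (30.1 and 5.21), phosphatases that ERK signalling turns on, were lower, and DUSP6 had 9.88 and 9.33. Of 19 receptor kinase, ligand and feedback genes 8 were lower and 1, FGFR1 (38.3 and 88.2), was higher, against 12.4% and 14.8% over all genes.

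Several genes of BMP and WNT signalling were lower too. The ID proteins, inhibitors of differentiation that BMP signalling turns on, were ID1 at 71.5 and 11.5 FPKM, ID2 at 21.4 and 6.75 and ID3 at 44.5 and 4.997. The ligand BMP7 had 15.9 and 1.19 and the WNT antagonist DKK1 48.8 and 2.01. TGFBI, induced by TGF-beta, went the other way at 24.2 and 115, as did the NOTCH pathway members NOTCH2 (6.88 and 19.6) and JAG2 (6.28 and 18.5). Of 17 genes in this list 3 were higher and 6 lower. The sixth, TGFBR2, had 5.16 and 1.88, a difference of -1.10 that became 0.11 after subtraction of its segment's median. TEAD1, a DNA-binding partner of YAP, had 13.8 and 2.71 FPKM and TEAD2 1.36 and 44.8. TEAD1 lies in the segment of chromosome 11 from 10 to 20 Mb, with a median of -1.11.

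Most partners of BRCA1 lay within 2-fold, as did 8351 of the 11481 genes compared. Of the 12 genes of this list, BRCA1 included, 2 were higher (1 of them BRCA1 itself), 2 lower and 8 neither. BARD1, its obligate partner, had 5.38 FPKM in vector and 4.43 in wtBRCA1 cells, and RBBP8, CtIP, had 34.5 and 22.4. PALB2, which ties BRCA1 to BRCA2, had 9.77 and 3.20, and BRE, a subunit of the BRCA1-A complex, 19.3 and 6.93. BABAM1 of the same complex was higher, at 44.2 and 128. Of 21 homologous recombination genes 1 was higher and 3 lower, with a median of 0.02. The recombinase paralog RAD51B had 14.6 and 0.468, the meiotic recombinase DMC1 9.88 and 0.291 and the nuclease MRE11A 17.3 and 3.34, while BRCA2 had 4.65 and 5.97. RAD51D, at 1.21 and 6.85, was the higher one.

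Other repair routes were also mixed. Of 9 Fanconi anaemia genes 2 were higher and 1 lower. Of 14 end joining and PARP genes 1 was higher and 2 lower, against 14.8% and 12.4% over all genes. After subtraction of the segment medians the Fanconi list had 1 higher and 0 lower, and the other list 0 higher and 1 lower. FANCD2, PARP1 and PARP2 thus lost their calls. FANCD2, the protein that Fanconi anaemia signalling marks with ubiquitin, had 24.5 FPKM in vector and 8.68 in wtBRCA1 cells, and FANCC 8.42 and 25.97. PARP1, the main poly(ADP-ribose) polymerase, had 119 and 280, a difference of 1.23, whereas PARP2 had 23.5 and 10.3. XRCC5, the Ku80 subunit of end joining, had 283 and 84.2 and its partner XRCC6 103 and 81.1. TP53BP1, which opposes end resection, had 9.85 and 15.2.

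Most replication and mitosis genes were within 2-fold, as were 8351 of the 11481 genes compared. Of 34 DNA replication genes 2 were higher (RFC4 at 77.1 and 279 and POLD1 at 41.9 and 121) and 2 lower, GINS1 at 26.8 and 5.51 and the ribonucleotide reductase RRM1 at 231 and 94.4. RRM1 lies in the low segment of chromosome 11, and its difference of -1.29 became 0.07 after subtraction. MKI67, a marker of cycling cells, had 22.2 and 18.2, and PCNA 379 and 304. Of 30 mitosis genes 5 were higher, among them the transcription factor FOXM1 (20.6 and 70.2) and NUSAP1 (45.7 and 175), and 3 were lower, among them TOP2A (135 and 60.9). The 3 became 5 under median-of-ratios scaling or quantile normalization and 1 with a pseudocount of 5, since several members lie at the threshold. The CDK inhibitors CDKN2C (3.93 and 37.9) and CDKN1B (5.71 and 21.6) were higher, and CDKN1A had 107 and 133.

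Among the direct targets of OTX-015 and their partners, BRD2 had 552 FPKM in vector and 743 in wtBRCA1 cells, against 97.5 and 159 under DMSO, and BRD3 had 10.6 and 10.9. AFF4, the scaffold of the super elongation complex, had 58.0 and 20.9, and HEXIM1, which holds P-TEFb inactive, 54.8 and 30.8, a difference of -0.81. The cyclin of P-TEFb CCNT2 had 3.19 and 8.25. Of 12 members 1 was higher and 2 lower, and 0 and 1 with a pseudocount of 5. MYC, a common target of BET inhibition, had 18.2 and 10.8, a difference of -0.70, and its antagonist MXD1 2.09 and 14.3.

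Some genes of lipid synthesis were lower in wtBRCA1 cells. HMGCS1, an early enzyme of the mevalonate pathway, had 78.6 FPKM in vector and 14.7 in wtBRCA1 cells, the squalene synthase FDFT1 277 and 103 and the sterol sensor INSIG1 234 and 64.5. Of 25 cholesterol genes 7 were lower and 1 higher (over all genes 12.4% and 14.8%) with a median of -0.22. After subtraction of the segment medians 4 of 23 were lower and 0 higher. SCD, the stearoyl desaturase, had 127 and 37.7, the triglyceride lipase PNPLA2 526 and 141, DGAT1 1852 and 743 and DGAT2 15.7 and 3.18. FASN, fatty acid synthase, had 223 and 267. Of 17 fatty acid and lipid droplet genes 7 were lower and 1 higher, with a median of -0.93 under OTX-015 and -0.14 under DMSO. After subtraction of the segment medians 5 of the 15 members with one were lower and 0 higher, with a median of -0.43.

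Glycolysis and hypoxia genes differed both ways. LDHA, a lactate dehydrogenase, had 784 FPKM in vector and 342 in wtBRCA1 cells, and its isoform LDHB 387 and 740. The lactate exporter SLC16A3 had 194 and 54.4, HK2 7.85 and 2.49, and the hypoxia-induced peptide ADM 74.1 and 21.8, while EGLN3, also hypoxia-induced, had 1.97 and 15.8 and PFKFB3 14.1 and 51.4. GAPDH had 2115 and 2090. LDHA and ADM lie in the segment of chromosome 11 from 10 to 20 Mb, with a median of -1.11. LDHB lies in that of chromosome 12 from 20 to 30 Mb, with a median of 0.83. The values above are given before subtraction of these medians. Of 27 members 6 were lower and 2 higher. After subtraction of the segment medians 2 of the 25 members with one were lower and 2 higher.

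Redox and iron genes showed no common direction. AKR1B1, the aldose reductase, had 679 FPKM in vector and 87.5 in wtBRCA1 cells, and thioredoxin reductase TXNRD1 1032 and 374. NQO1, the quinone reductase, had 1292 and 3067, PRDX1 2064 and 4595 and GPX1 140 and 532. Of 28 redox genes 6 were higher and 4 lower. The transferrin receptor TFRC had 4090 and 1633, against 1058 and 1241 under DMSO. The metallothionein MT2A had 24.8 and 258, against 87.7 and 122 under DMSO. The 13 mitochondrially encoded genes were above zero in 13 of 13 cases with a median of 0.86, and 2 of them, MT-CYB (322 and 664) and MT-CO2 (811 and 1750), were past the threshold, against 1 after quantile normalization. These transcripts come from 1 polycistronic genome, so they are no separate observations.

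Imprinted genes stood at both ends. PEG10 had 421 FPKM in vector and 14.1 in wtBRCA1 cells, and its neighbour SGCE 6.56 and 0.578. GRB10, an adaptor of insulin receptors, had 5.99 and 0.137, and IGF2 had 5.09 in vector cells and was listed at 0 in wtBRCA1 cells. PHLDA2 had 33.2 and 13.5, a difference of -1.24 that became 0.12 after subtraction of the median of its chromosome 11 segment. SNRPN, SNURF and PLAGL1 (0 and 5.19) made up the 3 higher of 11 members, against 5 lower. Of 15 long noncoding RNAs 2 were higher, 5 lower and 8 neither, with a median of -0.23. Among those that host small nucleolar RNAs, SNHG1 was at 329 and 40.0, SNHG12 at 28.98 and 7.22, SNHG5 at 760 and 347 and ZFAS1 at 597 and 251, whereas SNHG6 had 280 and 286 and GAS5 82.2 and 157. LINC00152 had 14.9 and 125.

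**Figure D4:**
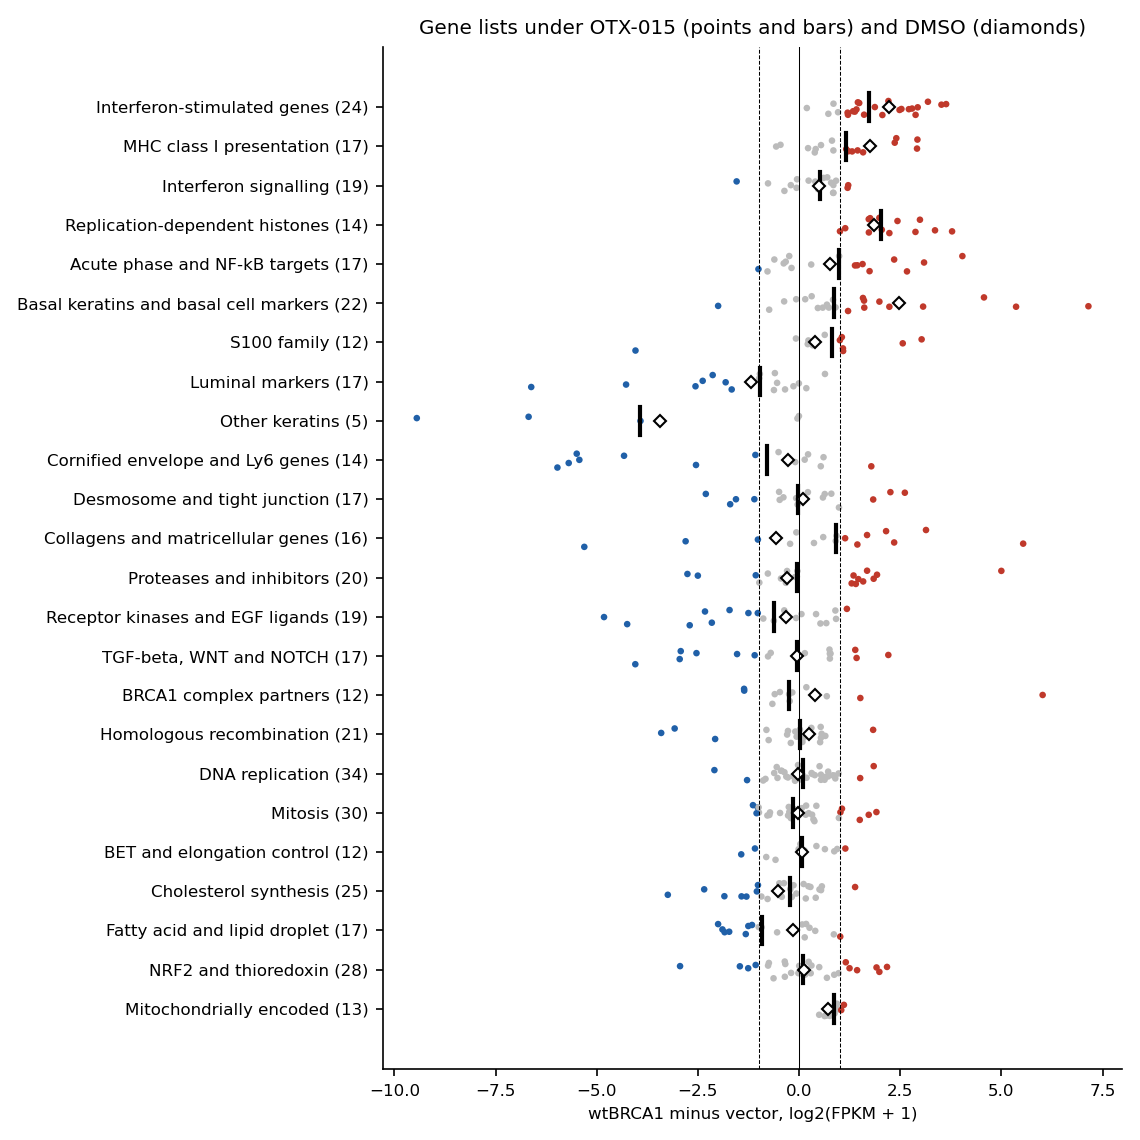
Each row is a gene list, with the number of members at 5 FPKM or more in brackets, each point is a gene's difference under OTX-015 in log2(FPKM + 1), the bar is their median and the diamond the median of the same genes under DMSO. Interferon-stimulated genes (median 1.74) and histones (2.01) lie to the right of zero and other keratins and luminal markers (-0.97) to the left, while homologous recombination (0.02) is spread about zero.

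Most genes past 2-fold under OTX-015 had a difference of the same sign under DMSO, but fewer shared the 2-fold call. The sign was the same for 1435 (84.3%) of the higher and 1157 (81.0%) of the lower genes. Of the 1702 higher genes 807 (47.4%) were also 2-fold higher under DMSO, 853 (50.1%) were within 2-fold there and 42 (2.47%) were 2-fold lower. Of the 1428 lower genes 610 (42.7%) were also 2-fold lower, 776 (54.3%) within 2-fold and 42 (2.94%) 2-fold higher. Over all 11481 genes 13.6% were 2-fold higher and 10.9% 2-fold lower under DMSO. Across the 11481 genes, which are not independent, the 2 differences were related with r = 0.609 (Pearson) and rho = 0.563 (Spearman). The difference under OTX-015 exceeded that under DMSO by 1 or more in 1206 genes and fell short of it by 1 or more in 1285.

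**Figure D5:**
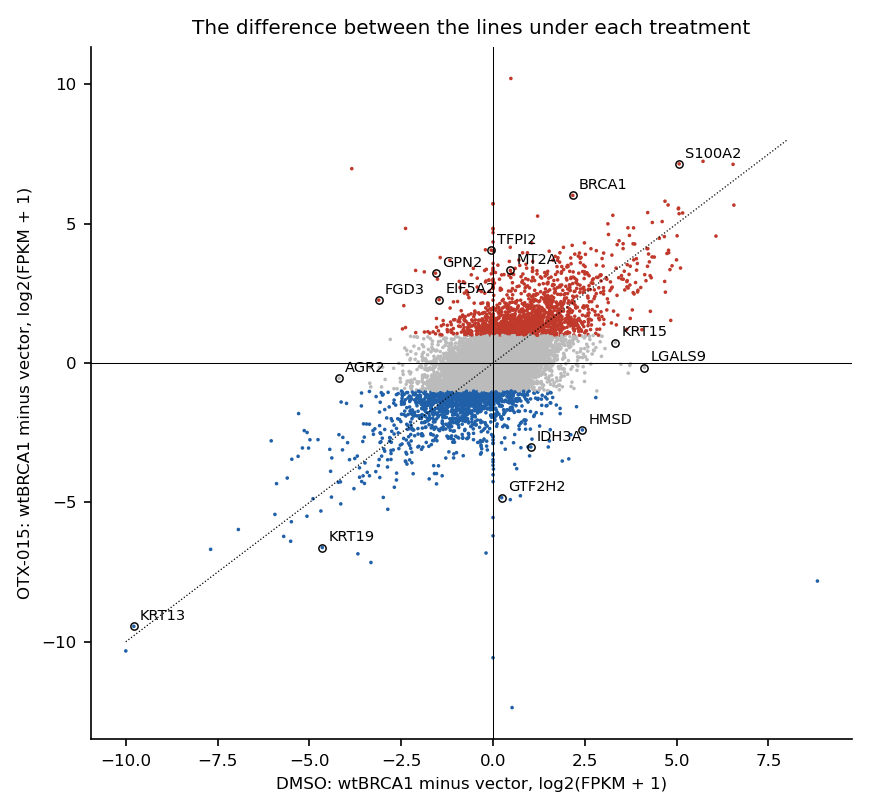
Each point is 1 of 11481 genes, with the wtBRCA1 minus vector difference in log2(FPKM + 1) under DMSO on the x axis and under OTX-015 on the y axis, and a dotted line where they are equal. KRT13, KRT19 and S100A2 lie toward the same corners in both treatments, while TFPI2, GTF2H2, FGD3 and HMSD lie off the dotted line.

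BRCA1 was among the genes whose difference was widest under OTX-015 relative to DMSO, by 3.85. TFPI2, an inhibitor of tissue factor, had 3.86 FPKM in vector and 79.8 in wtBRCA1 cells under OTX-015 and 4.16 and 3.99 under DMSO, so only the wtBRCA1 library under OTX-015 was high. MT1X, a metallothionein, was listed at 0 and 15.8 against 11.95 and 10.2, which makes the vector library under OTX-015 the low one. GSTT2B, a glutathione transferase, had 0.973 and 14.1 against 1.30 and 0.218, and HIST1H2AM was listed at 0 and 6.58 against 0.752 and 0. MT1X and GSTT2B have near-identical copies, so these values are uncertain. HIST1H2AM shares its locus with Z98744.3 (up to 395 FPKM) and MT1X with NUP93 (up to 128), so reads could have been divided between them.

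In the opposite sense, GTF2H2, a subunit of the general transcription factor TFIIH, had 53.4 FPKM in vector and 0.914 in wtBRCA1 cells under OTX-015 and 1.27 and 1.67 under DMSO. GTF2H2 lies in a duplicated region and its value is uncertain. SNHG9 had 43.1 and 2.19 against 3.97 and 6.78, and CKLF-CMTM1 21.9 and 0.844 against 15.5 and 23.8. In these genes the vector library under OTX-015 stood well above the wtBRCA1 one. LGALS9, a galectin, had 7.398 and 6.49 under OTX-015 against 3.49 and 77.1 under DMSO, and MDC1, which binds phosphorylated histone H2AX at DNA breaks, 91.9 and 71.4 against 8.57 and 122. For LGALS9 and MDC1 the lines were alike within 2-fold under OTX-015 and far apart under DMSO. CKLF-CMTM1 shares its locus with RP11-403P17.6 (up to 230 FPKM under OTX-015), LGALS9 with RP11-19P22.8 (30.0) and MDC1 with MDC1-AS1 (52.2). Reads could have been divided between them.

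Of the most abundant named transcripts, KRT8 and TFRC were 2-fold lower and LCN2 and PRDX1 2-fold higher in wtBRCA1 cells, as given above. Others differed less. ALDOA, an aldolase, had 3630 FPKM in vector and 4484 in wtBRCA1 cells, BEST1, which overlaps the ferritin gene FTH1, 4395 and 4596, and the ribosomal protein genes RPL8 and RPL28 had 4008 and 3925, and 5390 and 4202. RPS16 had 3446 and 4496. Of the rest RPS21, RPLP2 and C5orf45 were past 2-fold. RPS21, on chromosome 20, had 8319 and 3728, and RPLP2, in the low segment of chromosome 11, 3733 and 1531, a difference of -1.29 that became 0.07 after subtraction. C5orf45, which overlaps SQSTM1, had 7140 and 15872. MT-ND6 had 6415 and 12584, MT-ATP8 3503 and 6536 and the pyruvate kinase PKM 2394 and 4488.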

How the data were processed

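The deposited values are FPKM per gene. The submitters' processing notes name TopHat2, Cufflinks and the build hg38 for what the authors did. Versions, annotation and scaling between libraries are not given in the sources used here. The kit was directional per the labels, and use of strand in counting is not given. The 4 libraries, 1 per group, were joined by gene identifier (94.2% in GENCODE 29, used for types and positions), and genes at 5 FPKM or more in either OTX-015 library were kept. No common step of low values was found (at most 4 of 332 genes below 0.3 FPKM shared a ratio), so the depth stayed unknown and no count model was run. Differences are on log2(FPKM + 1), which understates changes of low genes, and a 2-fold threshold describes them without a test. Members, the 44 gene lists and the naming rule were chosen with earlier results of these data known. Named are BRCA1, the 15 highest and 15 lowest differences, the 8 widest and narrowest relative to DMSO, the 10 highest levels in each OTX-015 library and list members. Short structural, clone-named, pseudogene, X-inactivation and Y-linked genes stayed out of the naming rule, apart from list members. Of other genes only GABRE and SGCB, and neighbours of BRCA1, were named after their values were seen. Procedures were tested on simulated data. Promoters came from RefSeq (GRCh38.p14), matched by symbol. Alternatives were pseudocounts of 0.1 and 5, FPKM filters of 1, 20 or none, 3 scalings, protein-coding genes alone and inclusion of short RNA. Further alternatives were chosen after seeing the data (segment medians, genes with no other gene at the locus, genes above 0 in both libraries). Software was numpy 2.4.6, pandas 2.3.3, matplotlib 3.10.9 and scipy 1.17.1 under Python 3.11.15. Some list members are not reported here.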

Additional observations from a re-analysis of the deposited data

Results flagged for a closer look

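The following genes were at least 2-fold apart between the lines in opposite directions under the 2 treatments, each from 1 library per group. This difference between the treatments was not tested. FGD3, a guanine exchange factor, had 0.630 FPKM in vector and 6.81 in wtBRCA1 cells under OTX-015 but 18.2 and 1.22 under DMSO, so that the OTX-015 difference exceeded the DMSO difference by 5.37. For GPN2, a GTPase, the values were 2.90 and 35.5 against 7.26 and 1.79, with an excess of 4.79. GPN2 shares its locus with RP1-50O24.6 (up to 15.5 FPKM under OTX-015), so reads could have been divided between them. EIF5A2, a translation factor, had 7.54 and 40.4 against 12.2 and 3.77, with an excess of 3.75. The autophagy kinase ULK1 had 12.1 and 29.9 against 10.9 and 4.61, with an excess of 2.32.

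The reverse held for 4 genes. URGCP-MRPS24, a readthrough gene that shares its locus with MRPS24, was at 9.83 FPKM and listed at 0 under OTX-015 against 1.15 and 7.96 under DMSO, and its change between the treatments was -5.50. HMSD had 12.2 and 1.51 against 0.483 and 7.01, a change of -4.83. IDH3A, a subunit of mitochondrial isocitrate dehydrogenase, had 1323 and 163 against 36.4 and 75.3, a change of -4.04, and the vector library under OTX-015 stood far above the other libraries. IDH3A shares its locus with ACSBG1 (up to 71.5 FPKM under OTX-015), so reads could have been divided between them. The interleukin 1 antagonist IL1RN had 5.63 and 1.29 against 4.33 and 13.5, a change of -2.98.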

How the results depend on the processing

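The counts of 2-fold higher and lower genes depended on the filter and the pseudocount. They were 2752 and 2318 with a filter of 1 FPKM and again 2752 and 2318 with none, and 960 and 728 at 20 FPKM. With a pseudocount of 5 the lower count was 861. After subtraction of segment medians 1262 and 1110 of the 10660 genes in a segment were past the threshold, of which 1022 and 812 kept an original call (1542 and 1326 before). The counts were 858 and 799 over the 5827 genes with no other gene at their locus. The number with the same 2-fold call under DMSO, 1417, was 817 with a pseudocount of 5 and 809 at 20 FPKM. Among genes past 2-fold that are named or in a list, segment subtraction turned the sign of CTSD (0.29), TGFBR2 (0.11), RRM1 (0.0726), RPLP2 (0.0724) and PHLDA2 (0.12), since the other genes of their segments lay lower still. Of the 44 list medians, taken as a ratio of the lines, 43 moved by less than a factor of 1.5 under each pseudocount and under segment subtraction, and 44 under median-of-ratios scaling and under quantile normalization. List counts of 5 or fewer also moved by over 1.5 times in many cases, mostly with a pseudocount of 5 or after segment subtraction. No paired analysis was possible because each group has 1 library and the labels carry no replicate numbers. The unknown depth limits statements on genes near 0 FPKM.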

Other observations

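Of 22 lysosome and autophagy genes 21 passed 5 FPKM, of which 6 were 2-fold higher and 2 lower in wtBRCA1 cells, with a median of 0.39. The autophagosome protein GABARAPL1 had 15.1 FPKM in vector and 54.0 in wtBRCA1 cells, and MAP1LC3B 17.5 and 44.1. SQSTM1, an autophagy receptor, had 1648 and 2925, a difference of 0.83. The cathepsin CTSZ was lower, at 113 and 24.7. Of 21 genes of ER stress and the ATF4 response 5 were higher and 2 lower. PHGDH, the entry enzyme of serine synthesis, had 58.1 and 340, asparagine synthetase ASNS 52.3 and 139, and the glutathione-degrading CHAC1 1.44 and 7.68, whereas DDIT4 had 24.9 and 4.54 and TRIB3 8.32 and 3.14.

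Of 18 apoptosis genes 3 were higher and 3 lower, near the 14.8% and 12.4% over all genes. CASP8, the initiator caspase of death receptors, had 16.5 FPKM in vector and 76.4 in wtBRCA1 cells and the inflammatory caspase CASP1 2.67 and 10.4. BCL2L1, an inhibitor of apoptosis, had 56.3 and 12.9, BID 59.6 and 20.4 and the death receptor TNFRSF10B 18.2 and 7.74. Of 14 heat shock genes 2 were higher, HSPB1 at 46.6 and 127 and the regulator HSF1 at 475 and 993, which lies next to DGAT1. Of 11 p53 targets 1 was higher, FDXR at 32.9 and 83.5, and 0 were lower. Of 14 immediate early genes ATF3 (10.1 and 26.6) was higher and FOS (8.72 and 3.85) lower.

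Of the 58 short structural RNA genes at 5 FPKM or more, 25 were 2-fold higher and 22 lower in wtBRCA1 cells, and 31 were listed at 0 in 1 of the OTX-015 libraries.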
